A study of Mus musculus with 7 samples.

Results

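The expression of 41 genes of DNA replication and the cell cycle was compared between the livers of Trpm6-deficient and control mice. The genes were taken by symbol from a list of 16 replication licensing genes, 9 S phase genes, 14 mitosis genes and 2 inhibitors of cyclin-dependent kinases, and each was read from its brightest probe set. Of the 41 genes, 39 had a probe set annotated to that gene alone, among 35556 probe sets on the array. Ccnb1, which encodes cyclin B1, matched no probe set in the annotation used here, and Cdkn1a, which encodes the inhibitor p21, was named only by a probe set shared with a second symbol, so neither was given a value.

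Liver RNA came from 3 Trpm6-deficient mice and 4 control littermates, all male and on the C57BL/6 background, and a fragment of the left lobe of each mouse was hybridised to its own whole-transcript array. TRPM6 is a channel fused to a kinase that serves epithelial Mg2+ transport. The Trpm6-deficient mice were Trpm6 Δ17/Δ17;Sox2-Cre, in which exon 17 is deleted on both alleles, with Cre driven by the Sox2 promoter and inherited from the father, so that it acts in the epiblast and its descendants but not in extraembryonic tissue. The control mice were Trpm6 fl/+, and thus carried 1 floxed and 1 wild-type allele without Cre. Trpm6-deficient mice 1, 2 and 3 were 13, 12 and 13 weeks old, and control mice 1, 2, 3 and 4 were 12, 12, 13 and 13 weeks old, so both ages occurred in both groups. The Trpm6 probe set itself read 5.50, 5.37 and 5.50 in Trpm6-deficient livers and 5.53, 5.51, 5.50 and 5.50 in control livers on the log2 scale (log2 difference -0.05, standard error 0.05, limma adjusted p = 0.882). It does not check the genotype, since the exons that it covers were not examined. Its mean of 5.49 also lay below 5.90, the 95th percentile of probe sets of odorant and pheromone receptors, which liver is not known to use. Whether Trpm6 was detected in either group cannot be said. Array medians lay between 6.45 and 6.48 in Trpm6-deficient and between 6.43 and 6.46 in control livers. The precision of each difference depends on the number of arrays and on the spread between livers.

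Before a cell can copy its DNA, the origin recognition complex marks the start sites and, with Cdc6 and Cdt1, loads the Mcm2-7 hexamer there, a step called licensing. In late G1, cyclins D and E release the E2F factors that drive the genes of DNA synthesis. In S phase, Cdc45 and the GINS complex turn the loaded hexamer into the active helicase, and Mcm10 helps it to start unwinding. Cyclins A and B with Cdk1 then carry the cell into mitosis, where Aurora and Polo-like kinases and the spindle checkpoint govern chromosome separation. Most hepatocytes of an adult liver rest outside the cell cycle, and many are polyploid, so transcripts of this group come from few cycling cells, from resting hepatocytes or from other cells of the tissue. In bulk liver RNA, fewer cells of a type and less RNA per cell cannot be told apart.

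Members whose unadjusted p from limma was no more than 0.05 are called nominally higher or lower below, as a description and not as a call. The promoters of 6 such members are shown first, because licensing genes and mitotic genes are known to be driven through different short motifs. Each window runs from 250 bases before to 50 bases after the start of the gene, in RefSeq sequence of the GRCm38.p6 build, 5′ to 3′ on the strand of the gene. Capitals mark every match, on either strand, to the E2F motif (TTTCCCGC, TTTGGCGC, TTTCGCGC or TTTGCCGC), to the cell cycle homology region, or CHR (TTTGAA or TTCGAA), and to the CCAAT box (CCAAT). The windows lie at chr2:5012742-5013041 (minus strand) for Mcm10, chr5:138171834-138172133 (minus strand) for Mcm7, chr8:122567765-122568064 (plus strand) for Cdt1, chr7:48881547-48881846 (minus strand) for E2f8, chr11:99024140-99024439 (minus strand) for Top2a and chr10:69352863-69353162 (minus strand) for Cdk1.
Mcm10: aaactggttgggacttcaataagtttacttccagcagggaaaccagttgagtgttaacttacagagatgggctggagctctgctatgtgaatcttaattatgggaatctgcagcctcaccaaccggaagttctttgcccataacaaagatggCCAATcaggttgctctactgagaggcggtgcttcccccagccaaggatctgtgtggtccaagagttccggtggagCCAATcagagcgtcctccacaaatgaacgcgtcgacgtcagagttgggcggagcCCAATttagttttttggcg
Mcm7: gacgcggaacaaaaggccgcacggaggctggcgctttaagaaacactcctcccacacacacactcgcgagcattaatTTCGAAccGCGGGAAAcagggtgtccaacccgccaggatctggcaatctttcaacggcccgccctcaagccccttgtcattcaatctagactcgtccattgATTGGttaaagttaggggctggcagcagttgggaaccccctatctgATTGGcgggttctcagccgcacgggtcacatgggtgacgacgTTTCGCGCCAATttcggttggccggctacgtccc
Cdt1: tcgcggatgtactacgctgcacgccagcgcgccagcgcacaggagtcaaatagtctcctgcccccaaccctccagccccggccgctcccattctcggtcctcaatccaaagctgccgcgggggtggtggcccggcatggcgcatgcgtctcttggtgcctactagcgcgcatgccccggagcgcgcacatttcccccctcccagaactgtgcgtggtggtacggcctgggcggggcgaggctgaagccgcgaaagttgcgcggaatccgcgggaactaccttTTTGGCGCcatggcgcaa
E2f8: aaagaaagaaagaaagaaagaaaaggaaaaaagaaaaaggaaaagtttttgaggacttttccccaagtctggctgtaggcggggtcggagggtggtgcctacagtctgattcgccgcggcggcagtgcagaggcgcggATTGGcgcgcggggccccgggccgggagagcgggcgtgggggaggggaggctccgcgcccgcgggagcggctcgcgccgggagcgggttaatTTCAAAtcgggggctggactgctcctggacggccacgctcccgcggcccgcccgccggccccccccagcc
Top2a: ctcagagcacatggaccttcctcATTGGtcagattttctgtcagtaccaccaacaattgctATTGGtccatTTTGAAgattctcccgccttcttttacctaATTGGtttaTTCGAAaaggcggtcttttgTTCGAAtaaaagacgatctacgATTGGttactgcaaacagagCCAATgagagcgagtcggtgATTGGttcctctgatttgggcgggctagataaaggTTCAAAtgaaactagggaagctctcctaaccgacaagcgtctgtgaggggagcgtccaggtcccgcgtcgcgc
Cdk1: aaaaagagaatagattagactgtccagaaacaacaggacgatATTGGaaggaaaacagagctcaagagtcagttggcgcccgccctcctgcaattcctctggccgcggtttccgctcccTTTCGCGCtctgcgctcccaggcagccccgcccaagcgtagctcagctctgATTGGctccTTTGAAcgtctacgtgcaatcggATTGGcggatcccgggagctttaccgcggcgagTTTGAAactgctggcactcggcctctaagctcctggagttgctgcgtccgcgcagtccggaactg

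Mcm10 carried 3 CCAAT boxes, at -98, -23 and 31 bases from the start, and no match to the E2F or CHR letters in this window. Mcm7 held all 3 kinds, with a CHR match at -173, 2 E2F matches at -165 and 16 and CCAAT boxes at -72, -26 and 23. The last of these boxes shares bases with the second E2F match. This is the window of the most upstream Mcm7 start, and that of a second annotated start held 1 CCAAT box and no E2F or CHR match. Cdt1 held 1 E2F match at 32. Top2a, the topoisomerase that untangles sister chromatids, had 4 CHR and 6 CCAAT matches, whereas Cdk1, the mitotic kinase, also held all 3 kinds, with 2 CHR matches at -71 and -15. E2f8 had 1 CHR match at -20 and 1 CCAAT box at -112. Ccna2 and Ccnd1, the other 2 nominal members, had no entry in the promoter table used.

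**Figure D1:**
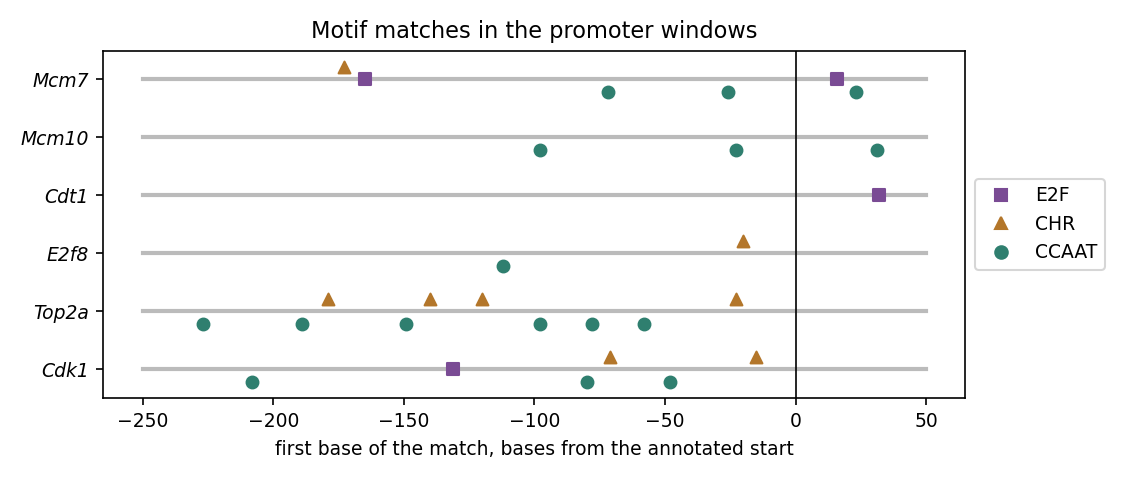
Motif matches in the promoter windows of 6 members. The horizontal axis gives the first base of each match in bases from the annotated start, squares are E2F, triangles CHR and circles CCAAT matches; E2F matches appear in Mcm7, Cdt1 and Cdk1, and Top2a holds the most matches of the 6 windows, 4 CHR and 6 CCAAT.

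Across the 32 members with a promoter, the motifs divided by role. A gene with more than 1 annotated start counted if any of its windows held a match. An E2F match was found in 66.7% of 12 licensing genes, in 0.0% of 7 S phase genes and in 9.1% of 11 mitosis genes, beside 2.6% of 27025 genes. CHR matches were in 25.0% of licensing, 14.3% of S phase and 81.8% of mitosis genes, beside 21.7% of all genes. Between licensing and mitosis genes CHR thus ran the other way from E2F, whereas S phase genes had the lowest share of each. CCAAT boxes were in 83.3%, 57.1% and 90.9% of these 3 roles, beside 41.1% of all genes. The 9 measured members with an E2F match had a median log2 difference of -0.08 and the 21 without one -0.04, with 3 of the 9 and 3 of the 21 nominally lower. For CHR the medians were -0.07 in 13 members with a match and -0.04 in 17 without, with 4 of the 13 and 2 of the 17 nominally lower. For CCAAT they were -0.05 in 24 members with a box and -0.11 in 6 without, with 5 of the 24 and 1 of the 6 nominally lower. These shares and medians describe the windows and were not tested, and a missing match says only that these letters are not in the window.

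Of the 39 measured members, Mcm10 was the one that passed limma's test across all probe sets, at an adjusted p no higher than 0.1, and it was lower in Trpm6-deficient livers. No member was called higher. Over all probe sets, 0.0534% were called lower and 0.0759% higher. In all, 7 members were nominally lower (Mcm10, Mcm7, Cdt1, E2f8, Top2a, Ccna2 and Cdk1) and 1 was nominally higher (Ccnd1), beside 3.03% and 3.85% of all probe sets. As shares of the members these are 17.9% and 2.6%. They are a description and were not tested, since the members were chosen with earlier results of these data known. The next smallest adjusted p among the members was 0.435, for Mcm7. The median log2 difference of the members was -0.05, with 71.8% of them below 0, beside a median of -0.01 and 52.2% below 0 for the 21789 probe sets with 1 symbol. Differences of less than 0.25 on the log2 scale were found in 33 of the 39 members, and in 90.4% of the probe sets with 1 symbol.

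**Figure D2:**
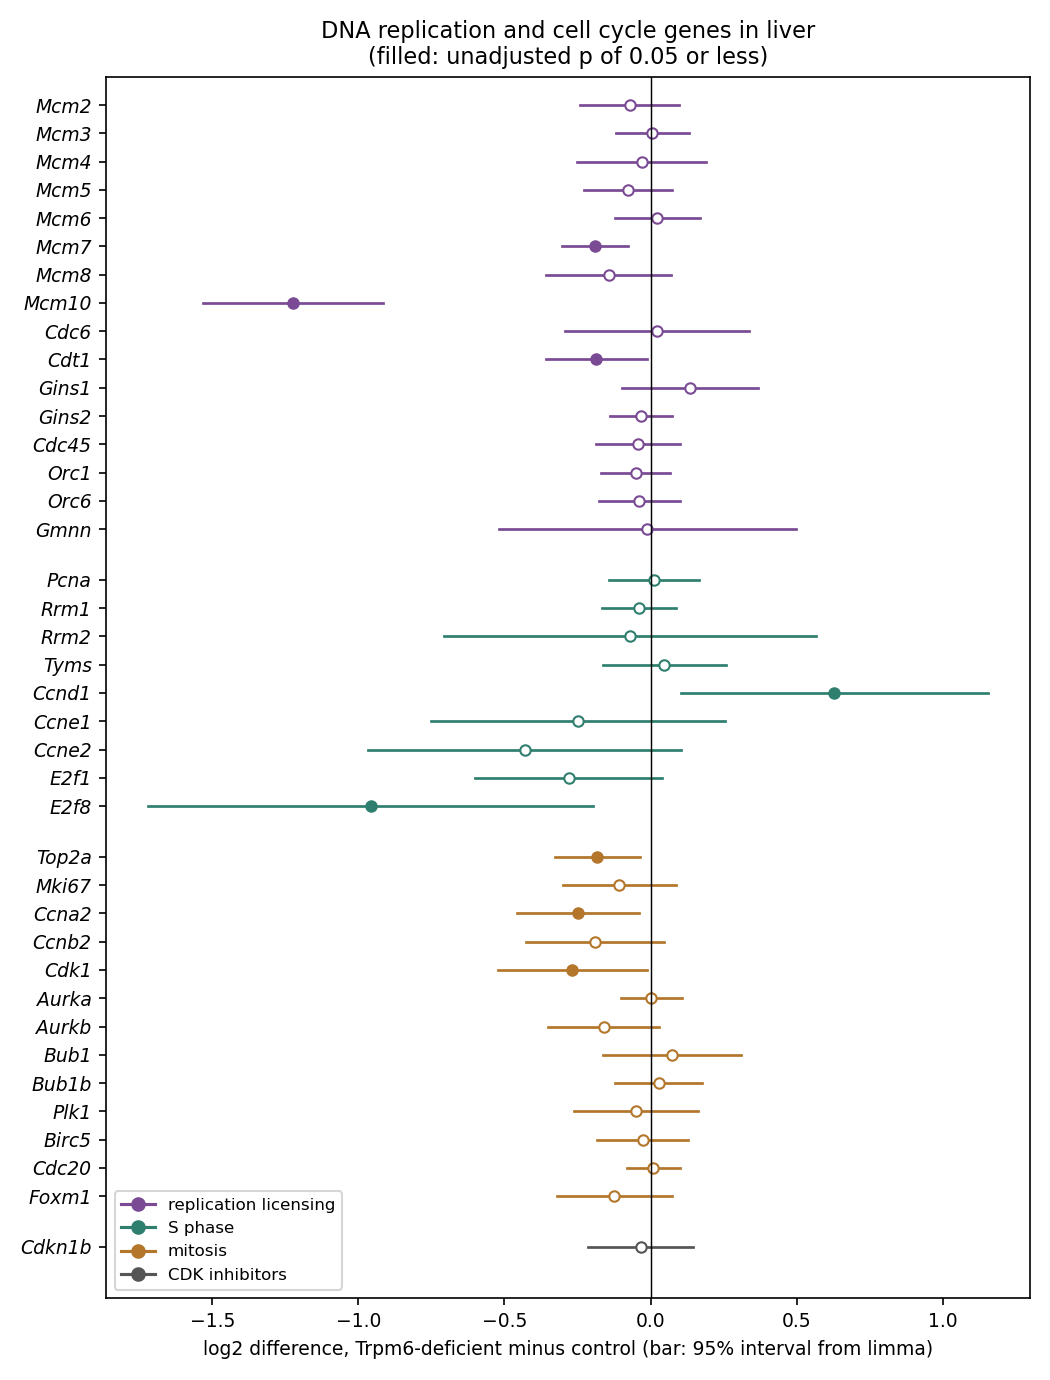
Log2 difference of each of the 39 measured members, Trpm6-deficient minus control, by role from top to bottom (licensing, S phase, mitosis, CDK inhibitor). Points are estimates and bars 95% intervals from limma over 3 Trpm6-deficient and 4 control livers, and filled points have a p of 0.05 or less before adjustment; Mcm10 at -1.23 and E2f8 at -0.96 lie farthest to the left and Ccnd1 at 0.63 farthest to the right.

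The groups did not overlap in 6 members, all lower in Trpm6-deficient livers (Mcm10, Mcm7, E2f1, E2f8, Top2a and Ccna2), and in no member was every Trpm6-deficient liver above every control. Over all probe sets, 2.38% had their groups apart with the Trpm6-deficient livers lower and 2.94% with them higher.

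Mcm10, which binds the helicase and is needed for origins to fire, had log2 values of 7.44, 7.20 and 6.96 in Trpm6-deficient livers and of 8.54, 8.28, 8.35 and 8.53 in control livers. The highest Trpm6-deficient liver lay well below the lowest control. The mean was 7.20 ± 0.24 in Trpm6-deficient and 8.43 ± 0.13 in control livers (SD, n = 3 and 4), which was a log2 difference of -1.23, or 0.428 of the control level (standard error 0.13, 95% interval -1.53 to -0.92, adjusted p = 0.0697 from limma). Its direction and size were stable when each liver was left out in turn (-1.35 to -1.11), but the call was not. Leaving out Trpm6-deficient 2 or 3 gave an adjusted p of 0.239 or 0.169, and leaving out control 1, 2, 3 or 4 gave 0.216, 0.231, 0.287 or 0.258, while leaving out Trpm6-deficient 1 gave 0.0572. With age as a covariate it was 0.169.

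The other licensing genes showed little difference. The 16 genes of this role had a median of -0.04 and 12 of them were below 0. The subunits of the Mcm2-7 ring ranged from -0.19 for Mcm7 to 0.02 for Mcm6, so the size of the Mcm10 difference was not found in the hexamer itself. Mcm7 read 7.85, 7.83 and 7.84 in Trpm6-deficient livers and 8.05, 8.02, 7.96 and 8.09 in control livers. The groups were apart and the Trpm6-deficient livers lay within 0.02 of one another (log2 difference -0.19, standard error 0.05, adjusted p = 0.435). Mcm7 stayed nominally lower with each of the 7 livers left out in turn. Mcm6 read 6.40 in each Trpm6-deficient liver and 6.45, 6.44, 6.37 and 6.25 in control livers. The 95% intervals of the differences were -0.24 to 0.10 for Mcm2, -0.12 to 0.13 for Mcm3, -0.25 to 0.19 for Mcm4, -0.23 to 0.07 for Mcm5 and -0.12 to 0.17 for Mcm6.

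Cdt1, the loading factor, read 7.06, 6.83 and 6.92 in Trpm6-deficient livers and 7.19, 7.06, 7.18 and 7.06 in control livers. Trpm6-deficient 1 was level with the lowest controls, so the groups met (log2 difference -0.19, standard error 0.07, adjusted p = 0.693). Cdt1 stayed nominally lower in 3 of the 7 settings with a liver left out. Geminin, the product of Gmnn, blocks Cdt1 once S phase has begun. Gmnn read 5.97, 5.49 and 5.42 in Trpm6-deficient livers and 5.48, 5.51, 6.11 and 5.45 in control livers, and its difference of -0.01 had the widest interval of this role, -0.52 to 0.50, since Trpm6-deficient 1 and control 3 both stood above the rest. Cdc6, the partner of Cdt1 in loading, differed by 0.02 (95% interval -0.29 to 0.34).

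Among the subunits of the active helicase, Gins1 had the largest positive difference of the licensing genes, with 6.56, 6.81 and 6.56 in Trpm6-deficient livers and 6.59, 6.56, 6.56 and 6.32 in control livers. One liver set each end of this spread, Trpm6-deficient 2 the upper and control 4 the lower (log2 difference 0.14, 95% interval -0.10 to 0.37). Without Trpm6-deficient 2 it was 0.05, and without control 4 it was 0.07. Gins2 differed by -0.03 and Cdc45 by -0.04. The subunits of the origin recognition complex were as close, with -0.05 for Orc1 and -0.04 for Orc6. Mcm8, a relative of the ring subunits that acts in the repair of broken DNA, differed by -0.14 (95% interval -0.36 to 0.07), with Trpm6-deficient 2 at 5.89 and the other Trpm6-deficient livers at 6.17 and 6.18, and by -0.05 without Trpm6-deficient 2.

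The S phase genes held the widest spread of the members, with differences between -0.96 and 0.63 and a median of -0.07 over 9 genes. E2f8, an atypical E2F that represses E2F targets and takes part in the polyploidy of mouse hepatocytes, read 6.49, 7.32 and 6.14 in Trpm6-deficient livers and 7.36, 7.65, 7.34 and 8.08 in control livers. The groups were apart by only 0.02, because Trpm6-deficient 2 lay just under control 3, and the SD was 0.61 in Trpm6-deficient and 0.35 in control livers. E2f8 differed by -0.96 (standard error 0.32, adjusted p = 0.641), and by -1.29 to -0.70 with a liver left out, where it stayed nominally lower in 4 of the 7 settings. E2f1, an activating E2F, read 7.26, 7.29 and 6.80 in Trpm6-deficient livers and 7.32, 7.42, 7.53 and 7.32 in control livers. All Trpm6-deficient livers were below all controls, but most of the difference of -0.28 came from Trpm6-deficient 3, and it was not nominally lower (standard error 0.13, adjusted p = 0.785). Without Trpm6-deficient 3 it was -0.12.

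Ccnd1, which encodes the cyclin that couples growth signals to the G1 phase, read 9.44, 9.27 and 9.93 in Trpm6-deficient livers and 8.92, 9.33, 8.81 and 8.61 in control livers. Trpm6-deficient 3 was the highest liver, and control 2 lay above Trpm6-deficient 2, so the groups overlapped. The difference was 0.63 (standard error 0.22, adjusted p = 0.655), the opposite direction to Mcm10 and E2f8. It ranged from 0.44 to 0.77 with a liver left out, and was nominally higher in 3 of the 7 settings. The E cyclins act after cyclin D at the entry into S phase. Ccne2 read 5.95, 5.21 and 5.45 in Trpm6-deficient livers and 5.86, 5.88, 6.39 and 5.74 in control livers (log2 difference -0.43, standard error 0.22, adjusted p = 0.81). Ccne1 read 6.24, 6.13 and 6.24 in Trpm6-deficient livers and 6.40, 6.15, 7.02 and 6.24 in control livers (log2 difference -0.25, 95% interval -0.75 to 0.25). For both E cyclins control 3 was the highest of the 7 livers, and without it the difference was -0.29 for Ccne2 and -0.06 for Ccne1. Without Trpm6-deficient 2 the difference of Ccne2 was -0.27.

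The genes of DNA synthesis itself were close in the 2 groups. Pcna, the sliding clamp of the replication fork, read 10.19, 10.20 and 10.20 in Trpm6-deficient livers and 10.20, 10.20, 10.29 and 10.05 in control livers (log2 difference 0.01, 95% interval -0.14 to 0.16). Its 2 probe sets had identical values and count once. Tyms, thymidylate synthase, read 7.62, 7.52 and 7.80 in Trpm6-deficient livers and 7.62, 7.69, 7.46 and 7.63 in control livers (log2 difference 0.05, 95% interval -0.16 to 0.26). The large subunit of ribonucleotide reductase, Rrm1, differed by -0.04 (95% interval -0.17 to 0.09). Rrm2, the subunit whose level follows S phase, read 7.75, 7.56 and 8.47 in Trpm6-deficient livers and 7.80, 7.85, 8.47 and 7.87 in control livers. A single liver of each group stood about as far above the rest, which left a difference of -0.07 with an interval from -0.71 to 0.57.

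**Figure D3:**
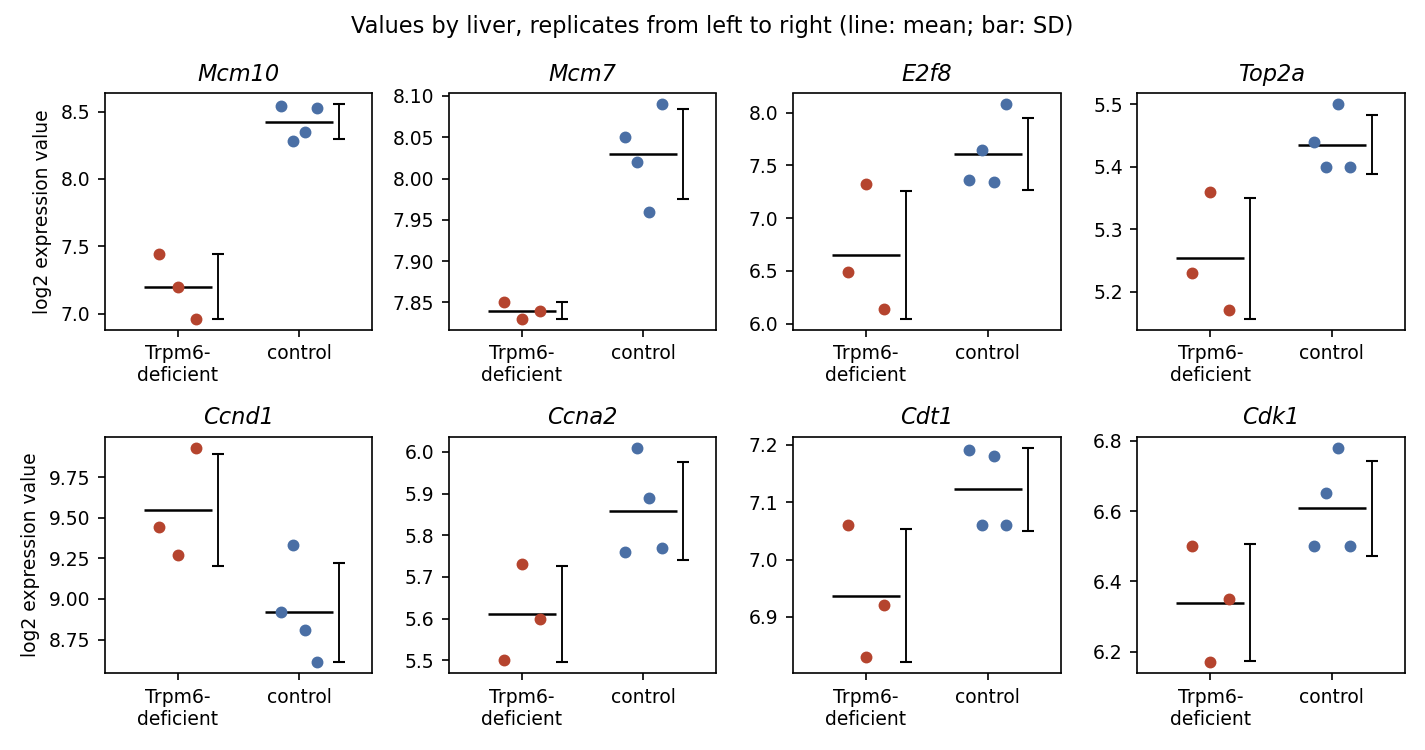
Log2 expression values of the 8 nominal members (a p of 0.05 or less before adjustment), with 1 point per liver, Trpm6-deficient livers on the left (n = 3) and control livers on the right (n = 4) of each panel, the mean as a line and the SD as a bar. The vertical axes differ between panels and do not start at 0; the groups are widest apart in Mcm10 and overlap or meet in Ccnd1, Cdt1 and Cdk1.

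The mitosis genes had a median of -0.11 over 13 measured genes (-0.033 without Trpm6-deficient 3), in a range from -0.27 to 0.07, and none passed the test. Cdk1, the kinase of mitotic entry, read 6.50, 6.17 and 6.35 in Trpm6-deficient livers and 6.50, 6.65, 6.78 and 6.50 in control livers. Trpm6-deficient 1 was level with controls 1 and 4 (log2 difference -0.27, standard error 0.11, adjusted p = 0.701). Ccna2, cyclin A2, which acts with Cdk2 in S phase and with Cdk1 afterwards, read 5.50, 5.73 and 5.60 in Trpm6-deficient livers and 5.76, 6.01, 5.89 and 5.77 in control livers. The groups were apart by 0.03 (log2 difference -0.25, standard error 0.09, adjusted p = 0.657). Top2a read 5.23, 5.36 and 5.17 in Trpm6-deficient livers and 5.44, 5.40, 5.50 and 5.40 in control livers (log2 difference -0.18, standard error 0.06, adjusted p = 0.642). A second Top2a probe set differed by -0.22 (adjusted p = 0.783). It read only 2.31 to 2.86, below the median of 4.21 of the odorant and pheromone receptor probe sets, so it adds no clear second reading. With a liver left out, Cdk1 stayed nominally lower in 3 of 7 settings, Ccna2 in 3 and Top2a in 5.

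Ccnb2, cyclin B2, read 6.70, 6.54 and 6.53 in Trpm6-deficient livers and 6.74, 6.70, 7.01 and 6.67 in control livers. Trpm6-deficient 1 matched control 2, and control 3 was the highest (log2 difference -0.19, 95% interval -0.43 to 0.05, and -0.11 without control 3). Mki67, the gene of the proliferation antigen Ki-67, read 6.02, 6.00 and 5.72 in Trpm6-deficient livers and 6.02 in all 4 control livers. Only Trpm6-deficient 3 differed clearly from the common value, and without it the difference of -0.11 shrank to -0.01. Foxm1, the transcription factor of the late cell cycle genes, differed by -0.12, and by -0.03 without Trpm6-deficient 3.

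The mitotic kinases and the checkpoint genes varied without a common direction. Aurka, the spindle pole kinase, read 6.86, 6.80 and 6.80 in Trpm6-deficient livers and 6.87, 6.80, 6.80 and 6.80 in control livers (log2 difference 0.00, 95% interval -0.10 to 0.11). Aurkb, the kinase of the chromosomal passenger complex, differed by -0.16 (95% interval -0.35 to 0.03), and Birc5, survivin, which belongs to the same complex, by -0.03. Bub1, a kinetochore kinase of the spindle checkpoint, read 4.14, 4.04 and 4.04 in Trpm6-deficient livers and 3.78, 4.19, 4.04 and 3.99 in control livers, the largest positive difference of this role at 0.07 (95% interval -0.16 to 0.31). Bub1b, another checkpoint gene, read 5.79, 5.56 and 5.63 in Trpm6-deficient livers and 5.63, 5.63, 5.64 and 5.63 in control livers. Plk1, the Polo-like kinase, differed by -0.05, and Cdc20, an activator of the anaphase-promoting complex, by 0.01.

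Of the CDK inhibitors, Cdkn1b, which encodes p27, could be read. It had values of 9.39, 9.52 and 9.34 in Trpm6-deficient livers and 9.32, 9.45, 9.56 and 9.47 in control livers, which overlapped (log2 difference -0.03, 95% interval -0.21 to 0.15). Its second, dimmer probe set read 7.59, 7.23 and 6.69 in Trpm6-deficient livers and 7.40, 6.80, 6.55 and 6.74 in control livers (log2 difference 0.30, adjusted p = 0.881).

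The deposited table gives no detection calls, so the members were set beside 1210 probe sets of odorant and pheromone receptors, genes that liver is not known to use. The receptor probe sets had a median log2 value of 4.21 and a 95th percentile of 5.90. Of the members, 31 averaged above this percentile, including Mcm10, Mcm7, Cdt1, E2f8, Ccnd1 and Cdk1. The 8 at or below it were Orc1, Gmnn, Ccne2, Top2a, Ccna2, Bub1, Bub1b and Foxm1, of which Top2a and Ccna2 are among the 7 nominally lower members. Whether these 8 were detected cannot be said from this table. Values were deposited to 2 decimals, and 6 members (15.4%) had the same value on 4 or more arrays, beside 18.0% of all probe sets; Mki67 and Cdc20 were among them.

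Single livers, in both groups, carried much of the variation among the members. Averaged over the 39 members, the difference from the control mean was -0.07, -0.14 and -0.13 in Trpm6-deficient 1, 2 and 3, and -0.03, 0.01, 0.06 and -0.04 in control 1, 2, 3 and 4. Without Mcm10 these averages were -0.05, -0.12 and -0.10 in Trpm6-deficient livers and lay between -0.04 and 0.06 in control livers. Trpm6-deficient 2 was the lowest of the 7 livers in 14 members (35.9%, beside 14.1% of all probe sets), and Trpm6-deficient 3 in 10 members (25.6%, beside 13.4%). Trpm6-deficient 1 was the lowest in 3 members (7.7%, beside 14.2%). Control 3 was the highest of the 7 in 12 members (30.8%, beside 16.0%), among them Gmnn, Ccne1, Ccne2, E2f1, Ccnb2, Cdk1 and Aurkb. Without Trpm6-deficient 3 the nominally lower members numbered 2, Mcm7 and Mcm10, and without control 3 they numbered 4.

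**Figure D4:**
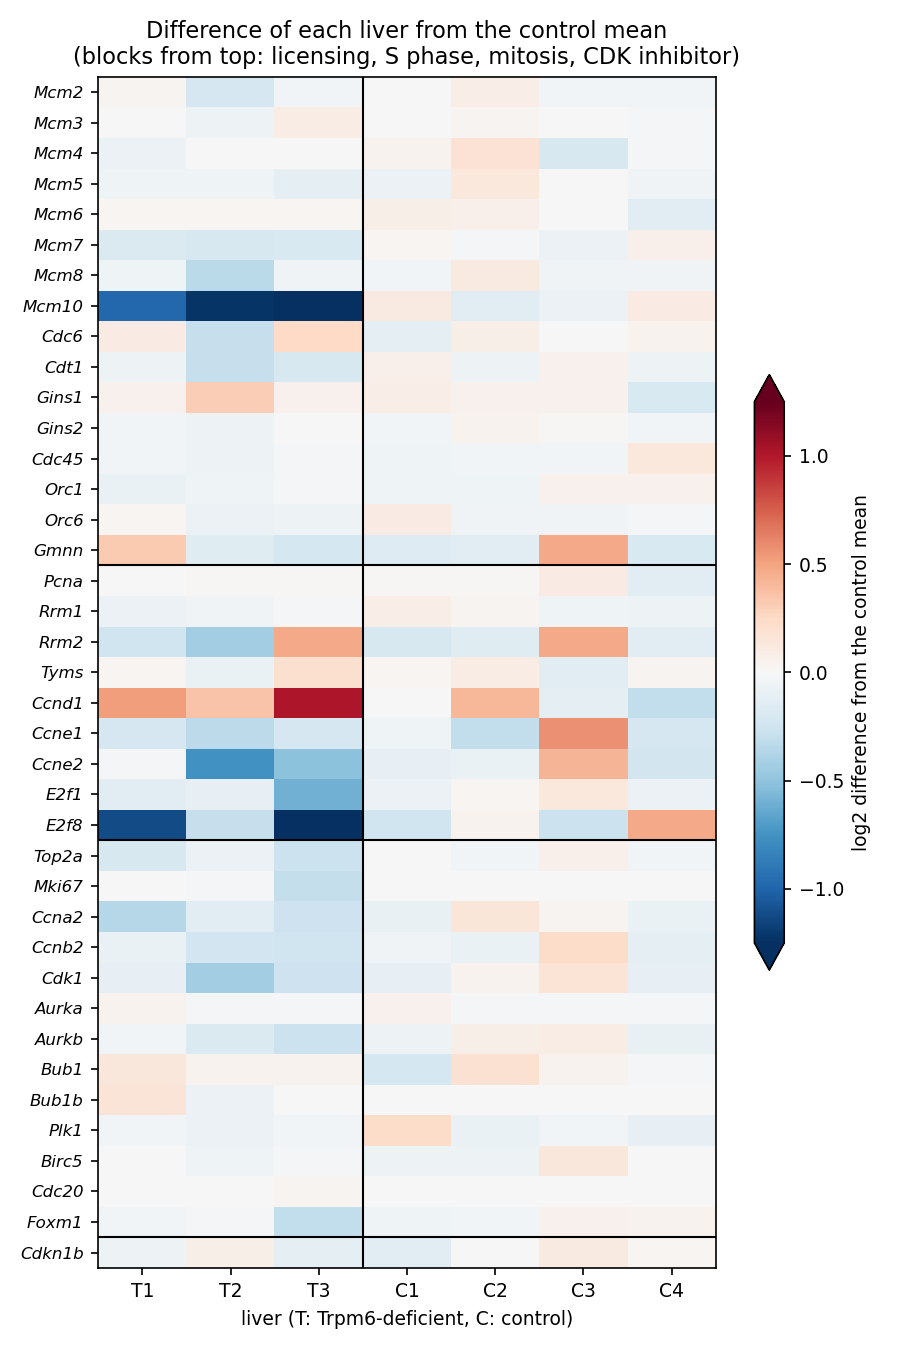
Difference of each liver (columns, T1 to T3 Trpm6-deficient, C1 to C4 control) from the control mean of each of the 39 members (rows, by role), on the log2 scale, blue below and red above the control mean, with the arrow ends of the scale for values beyond it. Mcm10 is low in all 3 Trpm6-deficient livers, and control 3 stands above the other controls in Gmnn, Rrm2, Ccne1 and Ccne2.

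Genes of the same pathway that are not members were counted from 6 lists. Differences were below 0 in 33 of 52 other origin and fork genes and in 9 of 16 of nucleotide supply. They were below 0 in 28 of 45 other cyclin, CDK and E2F-RB genes and in 47 of 65 other mitotic genes. For p53 targets this was 10 of 23, and for hepatocyte growth signals 10 of 25. Beside the nominal counts of these lists and of the markers below, 3.03% of all probe sets were nominally lower and 3.85% higher. Among 52 other genes of origins and forks none was called, with 1 nominally higher, 3 nominally lower and a median log2 difference of -0.04. Dbf4, the activator of the Cdc7 kinase that fires licensed origins, read 5.56, 5.34 and 5.22 in Trpm6-deficient livers and 5.98, 5.72, 6.10 and 6.08 in control livers. The groups were apart (log2 difference -0.60, standard error 0.12, adjusted p = 0.348). The values of the Trpm6-deficient livers and of control 2 lay below 5.90, the receptor 95th percentile. Lig1, the DNA ligase that joins Okazaki fragments, read 7.23, 6.88 and 7.09 in Trpm6-deficient livers and 6.80, 6.72, 6.70 and 6.63 in control livers, a difference of 0.35 (adjusted p = 0.477). Dna2, a nuclease that trims such fragments, differed by -0.18 (adjusted p = 0.669).

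The 16 other genes of nucleotide supply had 3 nominally higher, none nominally lower, none called and a median of -0.04. Paics, an enzyme of purine synthesis, read 12.91, 12.77 and 12.77 in Trpm6-deficient livers and 12.30, 12.38, 12.45 and 12.48 in control livers, a difference of 0.41 with the groups apart (standard error 0.07, adjusted p = 0.191). Umps, which completes UMP synthesis, differed by 0.33 (adjusted p = 0.685), and Ctps2, a CTP synthase, by 0.32 (adjusted p = 0.699). Other genes of nucleotide synthesis in the list had values below 0, such as Ctps, the other CTP synthase gene, at -0.29 and Cad, of pyrimidine synthesis, at -0.15. Among 45 other cyclins, cyclin-dependent kinases and genes of the E2F-RB pathway none was called, and 1 was nominally lower (median -0.03). This was Ccnf, cyclin F, with a difference of -0.28 (adjusted p = 0.641), followed by Cdkn2d at -0.18 (adjusted p = 0.8) and Cdk2 at -0.24 (adjusted p = 0.81).

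The 65 other mitotic genes had a median of -0.04, none called, 1 nominally higher and 4 nominally lower. Of the 65, 26 averaged above 5.90, the receptor 95th percentile. Whether the rest were detected cannot be said, among them Sgol2, which lay below 5.90 in every liver. Sgol2 (Sgo2a in the annotation), the shugoshin that guards centromeric cohesion, differed by -0.38 (adjusted p = 0.583), Stmn1, the microtubule destabiliser stathmin, by -0.37 (adjusted p = 0.641), and Cenpm, a centromere protein gene, by 0.47 (adjusted p = 0.597). Targets of p53, the pathway that induces Cdkn1a, had 23 measured genes, none called and a median of 0.01. Polk, a translesion polymerase gene, differed by 0.18 (adjusted p = 0.726), Perp by 0.10 (adjusted p = 0.807) and Sesn2 by 0.23 (adjusted p = 0.828).

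In the list of hepatocyte growth signals, with 25 measured genes and a median of 0.04, 1 gene was called. Egfr, the receptor of epidermal growth factor, read 11.75, 11.35 and 11.58 in Trpm6-deficient livers and 13.15, 13.21, 12.95 and 12.83 in control livers. It was lower by 1.48 on the log2 scale, with the groups far apart (standard error 0.13, adjusted p = 0.0474 from limma). Another 3 genes of this list were nominally higher, among them Lgr5, a WNT target gene, at 0.39 (adjusted p = 0.59) and Ctgf (Ccn2 in the annotation), a YAP target gene, at 0.47 (adjusted p = 0.657).

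**Figure D5:**
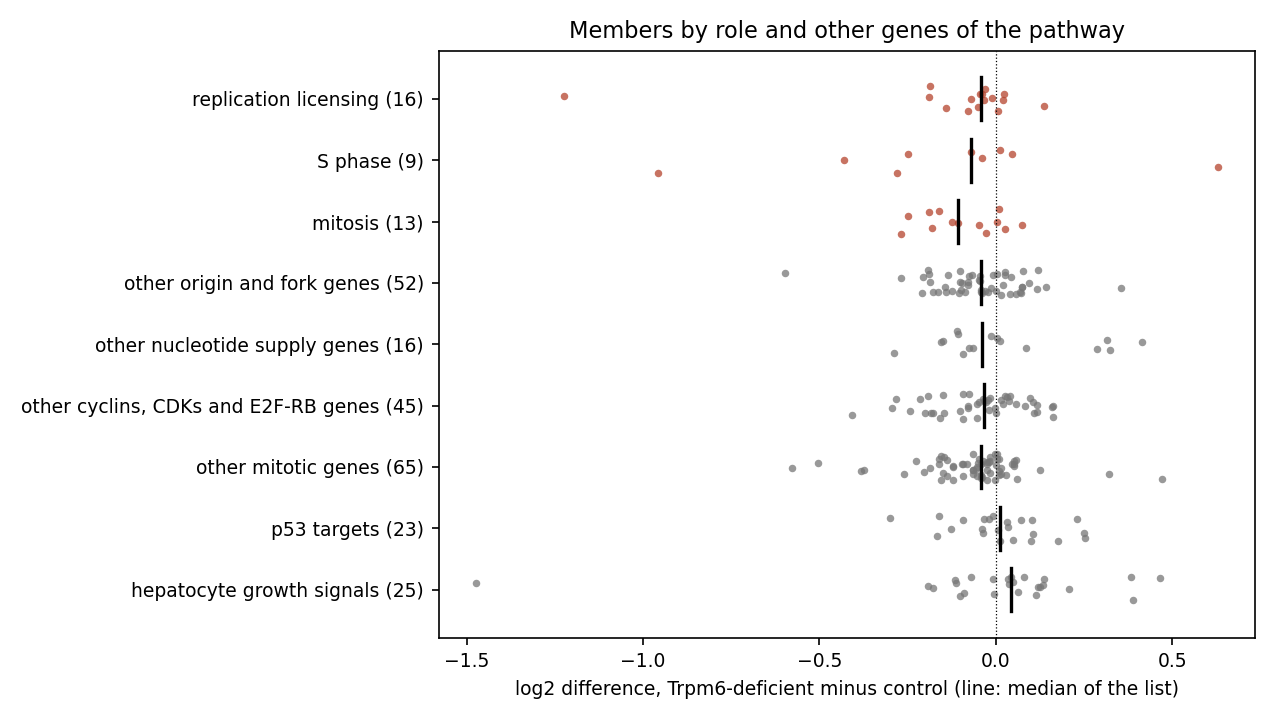
Log2 differences, Trpm6-deficient minus control, of the members by role (red, 3 upper rows) and of the other genes of 6 pathway lists (grey), with 1 point per gene, the number of measured genes in brackets and the median of each list as a black line. The medians lie between -0.11 and 0.04; Mcm10 at -1.23, E2f8 at -0.96 and Egfr at -1.48 lie far to the left of their lists.

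Markers of the cell types of liver were read in the same way, since cycling cells of an adult liver can belong to any of them. No marker passed the test in either direction. Hepatocyte markers had a mean log2 level of 13.81 to 13.90 in Trpm6-deficient and 13.78 to 13.89 in control livers over 10 genes, with Apoc3 nominally higher (0.18, adjusted p = 0.712). Kupffer cell and macrophage markers were below 0 in 10 of 11 genes (median -0.31), with mean levels of 8.68 to 8.82 in Trpm6-deficient livers and of 8.40, 9.27, 9.32 and 9.11 in control livers, of which control 1 stood apart. Sinusoidal endothelial markers were below 0 in 10 of 10 genes (median -0.19). Their mean levels were 9.15, 9.59 and 9.28 in Trpm6-deficient 1, 2 and 3 and 8.91 to 9.92 in control livers. In both lists Trpm6-deficient 1 and control 1 were the lowest livers of their groups. None of the genes of these 2 lists differed nominally. Erythroid markers were below 0 in 7 of 8 genes (median -0.07, mean levels 6.93 to 7.09 in Trpm6-deficient and 7.20 to 7.35 in control livers). Alas2, the heme synthesis enzyme of red cell precursors, read 9.95, 8.85 and 9.19 in Trpm6-deficient livers and 10.72, 11.17, 11.07 and 10.98 in control livers (log2 difference -1.66, adjusted p = 0.192). Car1 differed by -0.31, and the remaining erythroid markers lay between -0.12 for Gata1 and 0.01 for Klf1. Of those below 0, Slc4a1 at -0.0058 and Hemgn at -0.0025 were close to 0. Averages above 5.90, the receptor 95th percentile, were found in 6 of the 8 erythroid markers. Whether Epb42 and Gata1, which lay below it, were detected cannot be said.

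Markers of stellate cells and fibroblasts had a median of 0.00 over 10 genes, with Reln, Des and Ecm1 nominally higher (0.30, 0.28 and 0.42), and mean levels of 9.03 to 9.13 in Trpm6-deficient and 8.88 to 9.08 in control livers. Cholangiocyte markers had a median of -0.04 over 7 genes, with Krt19 nominally higher (0.33), and mean levels of 6.70 to 6.79 in Trpm6-deficient and 6.63 to 6.77 in control livers. Markers of T and NK cells had a median of -0.01 over 9 genes, with Cd4 nominally lower (-0.58, adjusted p = 0.388), and mean levels of 5.44 to 5.64 in Trpm6-deficient and 5.47 to 5.79 in control livers. B and plasma cell markers (median -0.05, 6 genes, mean levels 5.55 to 5.73 in Trpm6-deficient and 5.54 to 5.87 in control livers) and neutrophil and myeloid precursor markers (median -0.04, 10 genes, mean levels 5.57 to 5.60 in Trpm6-deficient and 5.52 to 5.65 in control livers) had no gene that differed nominally. Averages above 5.90, the receptor 95th percentile, were found in 4 of 7 cholangiocyte markers and 4 of 9 T and NK cell markers. They were found in 3 of 6 B and plasma cell markers and 4 of 10 neutrophil and myeloid precursor markers. Whether the other markers of these lists were detected cannot be said. The part of these cell types in the differences of Mcm10, E2f8, Ccnd1 and the other members was not tested.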

How the data were processed

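Liver RNA of 3 Trpm6-deficient and 4 control mice was measured on Affymetrix Mouse Gene 1.0 ST arrays, with 1 array per mouse. Background correction, normalization between arrays and summarization per probe set were done by the authors in Affymetrix Expression Console (version 1.4.0), by RMA per the submitters' processing notes, and the deposited values are on the log2 scale. RMA pulls arrays to a common distribution, so a shift shared by all genes would not be seen, and detection calls were not used here. The genome build behind the probe sets is not given in the sources used here.

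The deposited values of all 35556 probe sets were fitted with limma (version 3.58.1, lmFit and eBayes) in R (version 4.3.3), Trpm6-deficient minus control without a covariate, with Benjamini-Hochberg adjustment over the whole array. A probe set was called where its adjusted p was 0.1 or less, the threshold of the study's methods, and nominal counts (unadjusted p of 0.05 or less) are given as a description. Probe sets were named from the annotation of the platform (21789 with 1 symbol, 1621 with several and 12146 without), with old symbols matched through RefSeq gene identifiers. Each gene was read from its brightest probe set by mean over the 7 arrays among those with 1 symbol. The members, roles, gene lists and markers were chosen with earlier results of these data known. Values of every array are given for nominal members, for the 2 brightest of each role and for the 2 with the largest difference in each direction; of other lists, genes called or else the 3 with the smallest p. The values of Gmnn, Rrm2, Ccne1, E2f1, Mki67 and the second probe set of Cdkn1b were added after they had been seen, as were those of other genes outside this rule. The fit was tested on simulated data. Alternatives were a filter on low values, median centring, quantile normalization, age as a covariate and the replicate number as a block. Others were limma with trend and robust settings, a plain t-test, leaving out each liver, the mean over probe sets and an exact permutation test. The plain t-test used pooled variance and the same adjustment. The study named a t-test only for an unadjusted set and made its adjusted calls with limma. Samples of a group came from separate mice.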

Additional observations from a re-analysis of the deposited data

Results flagged for a closer look

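In 7 of 37 members tested, 1 control liver lay far from the other 3. This was by Dixon's test of the gap against the whole range at the 95% level. For unrounded normal values chance flags about 1 in 20 groups, or 5%. These values are rounded, and in Aurka and Bub1b the other 3 controls were equal, so that any gap is flagged. The share over all probe sets is not given here, so 7 of 37 is not shown to be an excess. Control 3 was high in Gmnn (6.11, the other controls between 5.45 and 5.51), in Rrm2 (8.47, the others between 7.80 and 7.87) and in Bub1b (5.64, the others at 5.63, a gap of 0.01 that is the rounding step of the table). Control 4 was low in Gins1 (6.32, the others between 6.56 and 6.59) and high in Cdc45 (6.70, the others between 6.51 and 6.53). Control 2 was high in Mcm8 (6.34, the others at 6.18 and 6.19), and control 1 in Aurka (6.87, the others at 6.80). None of the 8 nominal members was among the 7. The test was not run on the 3 Trpm6-deficient livers.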

How the results depend on the processing

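Mcm10 was lower in every alternative run, but its call depended on the test and on single livers. The call was kept with a filter at a mean log2 value of 5 (adjusted p = 0.0447 from limma), median centring (0.0627), quantile normalization (0.0689), trend and robust settings (0.0695) and the mean over probe sets (0.0668). It was lost, so that 0 members were called, with age as a covariate (log2 difference -1.23, adjusted p = 0.169 from limma). The same held with a plain t-test (-1.23, adjusted p = 0.288), which is not the test of the study's adjusted calls. With a liver left out, Mcm10 differed by -1.35 to -1.11 and 0 to 1 members were called, the 1 being without Trpm6-deficient 1. Over all probe sets, 46 were called, against 8 with age, 8 with the plain t-test, 70 with the filter and 7 to 69 with a liver left out. The cause of the lost calls was not tested.

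The 7 nominally lower members and the 1 nominally higher were the same genes with age, the filter, median centring, trend and robust settings and the mean over probe sets. Quantile normalization left 6 lower, without Cdt1, and the plain t-test 6, without Cdk1. With a liver left out there were 2 to 6 nominally lower and 0 to 1 nominally higher, the 2 without Trpm6-deficient 3. These counts can include members outside the 7. Without Trpm6-deficient 1 there were 6 lower, and of the 7 these held Mcm7, Mcm10, Cdt1 and Cdk1. Without Trpm6-deficient 2 there were also 6, and of the 7 these held Mcm7, Mcm10, E2f8, Top2a and Ccna2. In exact two-sided permutation of the labels the smallest p that 3 against 4 livers allow is 0.0286, before any adjustment, which Mcm10, Mcm7, E2f1, E2f8, Top2a and Ccna2 reached, and Cdt1, Cdk1 and Ccnd1 had 0.0857. With a liver left out the median of the licensing genes was -0.063 to -0.026, of the S phase genes -0.14 to -0.025 and of the mitosis genes -0.16 to -0.033. Cdkn1b differed by 0.13 as the mean over its 2 probe sets, and by -0.09 to 0.01 with a liver left out.

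The labels number the replicates. Over all probe sets, the deviations of same-numbered livers correlated at 0.34, 0.26 and 0.09, and those of differently numbered livers at -0.245 to 0.226. Trpm6-deficient 1 and 2 correlated best with their own number, and Trpm6-deficient 3 with control 4. The main fit did not pair the mice, and whether the numbers mark litters or another shared factor was not tested. With the replicate number as a block, Mcm10 differed by -1.19 (adjusted p = 0.388 from limma) and 0 members were called. Of the members, 5 were nominally lower and 0 nominally higher, and 1 probe set of the array was called. In that fit 9.27% of all probe sets had an unadjusted p of 0.05 or less, beside 3.03% lower and 3.85% higher in the main fit.

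Low signal limits the 8 members at or below the level of the receptor probe sets, and the genes of the other lists at that level.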
